A study of Mus musculus with 12 samples.

Results

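The Zbtb genes encode transcription factors with a BTB domain at one end and DNA-binding zinc fingers at the other. The BTB domain pairs with a second BTB domain and binds corepressor complexes or the ubiquitin ligase scaffold CUL3, and the zinc fingers choose the DNA sequence. Several members decide blood cell fates, and ZBTB24, one of their relatives, is mutated in some patients with ICF syndrome, an inherited immunodeficiency with unstable centromeres. The members described here were all protein-coding genes of the deposited count table whose mouse symbol is Zbtb followed by a number and at most 1 letter, with Zbtb24 left out. The rule took 39 of the 46078 genes counted. Zbtb8os and the antisense gene Zbtb11os1, whose symbols begin alike, fell outside it.

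RNA was sequenced from marginal zone (MZ) B cells, which sit at the edge of the splenic follicle and respond fast to blood-borne antigens, and from follicular (FO) B cells, the recirculating majority. The 4 groups were MZ CKO, MZ control, FO CKO and FO control, with 3 libraries each. All came from spleens of C57BL/6 mice aged 8 to 12 weeks. CKO mice are described as VAVcre-Zbtb24 and labelled Zbtb24-/-, and control mice carried VAVcre and are labelled WT, so both genotypes carried the Cre transgene, which acts in all blood-forming cells and not in B cells alone. The subsets were separated with a Miltenyi magnetic kit and the libraries were made with a TruSeq kit from 0.1 ug of RNA. The labels give an animal number, and each of the 6 numbers (1512, 1514 and 2002 for CKO, 1505, 1507 and 2003 for control) stands on 1 MZ and 1 FO library, read here as the same mouse, so that the 3 replicates of a group are 3 animals. The design asks whether relatives of Zbtb24 differed when it was deleted, and which of them differed between the subsets.

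Libraries held 36340116 to 44629250 gene counts. Values are given as CPM, counts relative to the scaled library size, and, where levels of different genes are compared, as RPKM, which is CPM per kilobase of merged exons. The leading principal component parted MZ from FO libraries with 40.8% of the variance. The second (17.7%) went with the replicate number in both genotypes and both subsets. Replicate 2 libraries lay at 18.5 to 43 on it and replicate 3 libraries at -34.6 to -24.8. Both libraries of CKO mouse 1512 stood apart on the third (9.34%). The labels held up against the sums of defining markers. Those of 9 MZ B cell markers were 5570 to 7280 CPM in MZ libraries and 1190 to 1740 CPM in FO libraries. Sums of 7 FO B cell markers were 1720 to 2260 CPM in MZ and 4310 to 5110 CPM in FO libraries. Of these 7, 6 were lower in MZ cells of both genotypes. The other, Cxcr5, was higher there (log2 0.445 in CKO and 0.382 in control mice). Markers of other cells were present in every library, none of them at 0. The sum of 8 T cell markers was 163 to 258 CPM in MZ CKO, 195 to 296 in MZ control, 234 to 343 in FO CKO and 335 to 397 in FO control libraries. The sum of 7 neutrophil markers was highest in both libraries of CKO mouse 1514, at 238 CPM in MZ and 391 CPM in FO cells. In sorted bulk cells, fewer cells of a type and less RNA per cell cannot be told apart.

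Zbtb24 itself (chr10:41450383-41465574 on GRCm38) was still counted in CKO libraries. It was at 46.4, 41.8 and 41.9 CPM in MZ CKO libraries, against 49.1, 53 and 54.4 CPM in MZ control libraries, and at 48.3, 46.9 and 50 CPM in FO CKO libraries, against 62.5, 60.8 and 60.8 CPM in FO control libraries. The CKO and control libraries did not overlap in either subset, with CKO lower, and edgeR's quasi-likelihood test with Benjamini-Hochberg adjustment over all genes did not pass in either (log2 -0.27, adjusted p = 1 in MZ; log2 -0.34, adjusted p = 0.194 in FO). Counts per exon were not used here, so reads from the deleted part were not told from the rest. Cdca7, a chromatin remodelling partner and the best known target of ZBTB24, was at 2.76, 5.37 and 1.88 CPM in MZ CKO libraries, against 33.1, 42.4 and 33.7 CPM in MZ control libraries, and at 1.01, 2.64 and 0.55 CPM in FO CKO libraries, against 31.7, 33.8 and 32.4 CPM in FO control libraries. The groups lay far apart in both subsets, although the test over all genes did not pass for Cdca7 (adjusted p = 0.291 in MZ and 0.564 in FO; an exact permutation test of 3 libraries against 3 cannot go below 0.1).

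Of the 39 members, 36 had enough counts to be tested in all comparisons. The other 3 were near or at 0: Zbtb7c, which encodes a repressor of p53 pathway genes, had 0 to 4 counts per library, Zbtb8b had 0 to 4, and Zbtb9 was listed at 0 in all 12 libraries. Of the exon bases of Zbtb9, 84.4% are shared with Ggnbp1 on the same strand in the annotation used here. Ggnbp1 itself was not found among the genes of the deposited count table. For the 36 tested members the level per length was typical of genes that these cells use, with a median of 5.14 RPKM, beside 5.21 RPKM over the 13529 protein-coding genes tested in all 12 libraries.

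The 8 members with the highest level per length were Zbtb22 (24.6 RPKM as the mean of 12 libraries), Zbtb4 (24.2), Zbtb18 (24.1), Zbtb7b (21.2), Zbtb7a (20.5), Zbtb17 (16.9), Zbtb5 (10.7) and Zbtb48 (10.3). Zbtb4 encodes a methyl-CpG binding repressor, Zbtb18 (RP58) a repressor known from the developing brain, Zbtb7a (LRF) a factor that holds B lineage choice against Notch signals, and Zbtb17 (MIZ1) the partner through which MYC represses genes. Zbtb7b (ThPOK) is the master factor of CD4 T cells, and Zbtb48 (TZAP) binds telomeres. Neighbours in this order overlapped in their ranges over libraries down to Zbtb46, except that Zbtb7a stood above Zbtb17 and Zbtb17 above Zbtb5 in every library. Zbtb24 itself, at 10.02 RPKM, lay level with Zbtb43 (10.02), with 8 relatives above it on this scale. The rank of Zbtb24 depends on the length used, since it had 18.05 RPKM over its longest transcript. At the low end stood Zbtb34 (1.2 RPKM), Zbtb46 (1.0) and Zbtb16 (0.348). Zbtb16 (PLZF), the factor that shapes natural killer T and innate lymphoid cells, was below every other tested member, with 33 to 129 counts per library.

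**Figure D1:**
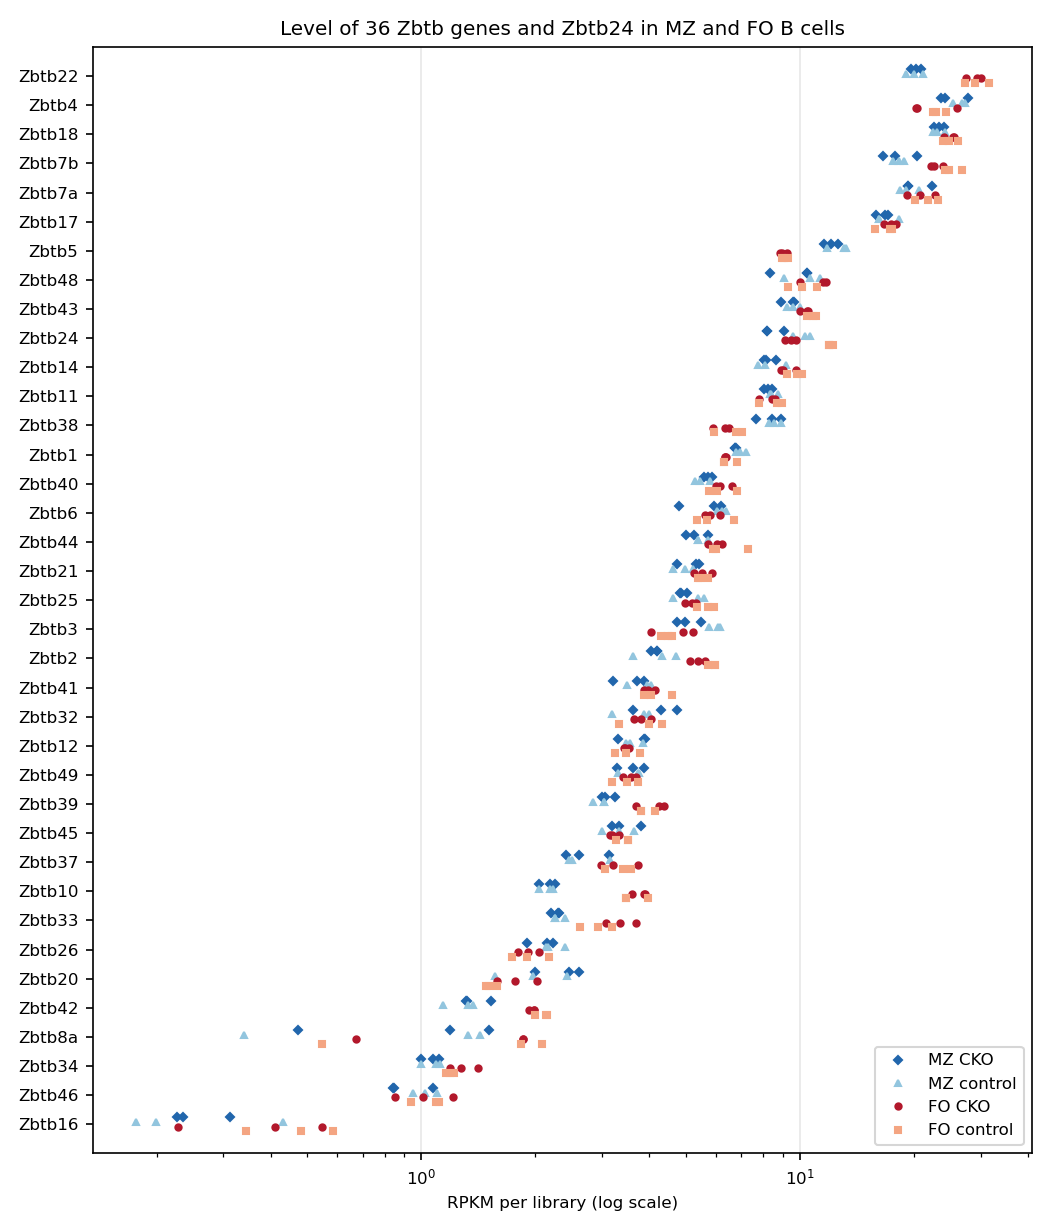
Level of each tested member and of Zbtb24 in every library, in RPKM on a log axis, with 1 symbol per library and the 4 groups as colours, members ordered by their mean. Most members formed a tight band in all 4 groups, Zbtb22 to Zbtb17 lay highest, and the points of Zbtb8a and Zbtb16 were spread most.

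Most members varied little between the mice of a group. The coefficient of variation within a group, averaged over the 4 groups, had a median of 6.15% over the 36 members. This average was under 10% in 29 of them. In single groups some of the 29 exceeded 10%, up to 14.6% for Zbtb4 in FO CKO cells. Zbtb1, which lymphoid cells need for their development, was the steadiest: its level was 81.9, 82.8 and 82.0 CPM in MZ CKO and 77.5, 77.6 and 77.2 CPM in FO CKO libraries. The average was largest in Zbtb8a and Zbtb16, at 52.7% and 34.4%, and from 10.2% to 12.7% in Zbtb20, Zbtb46, Zbtb37, Zbtb32 and Zbtb48. Summed over all 39 members, the family held 1667 ± 5.1 CPM in MZ CKO, 1679 ± 33.1 in MZ control, 1723 ± 24.6 in FO CKO and 1756 ± 51.5 CPM in FO control libraries (SD, n = 3 each), so the total in CKO cells lay within the spread of the control cells in both subsets.

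No relative passed the test for a difference with the deletion. Of 36 members, 0 passed in MZ CKO against MZ control cells, where 0.0793% of all genes passed, and 0 passed in FO CKO against FO control cells, where 0.09% of all genes passed (0 members and 0.141% of all genes with the replicate number as a block). With so few genes passing in all, a count of 0 among 36 is what the background gives and is not particular to the family. At an unadjusted p under 0.05, 0 members were found in MZ (2.9% of all genes) and 1 in FO cells (4.03% of all genes), which was Zbtb20. DESeq2 also called 0 members in either subset (0.111% of all genes in MZ and 0.138% in FO cells), as did limma-voom (0.0396% and 0.0844%). The log2 fold changes of the members ran from -0.24 to 0.25 in MZ cells with a median of -0.02, beside 0.00 over all genes, and from -0.24 to 0.24 in FO cells with a median of -0.02, beside 0.01 over all genes.

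The size of a rise that these data leave possible was small for most members. The approximate 95% interval of the fold change (CKO over control) ended below 1.2-fold for 25 of 36 members in each subset, and below 1.5-fold for 33 in MZ and 35 in FO cells. The intervals reaching past 1.5-fold were those of Zbtb8a (up to 3.25-fold), Zbtb16 (up to 1.62-fold) and Zbtb20 (up to 1.57-fold) in MZ cells, and of Zbtb8a alone (up to 3.07-fold) in FO cells. Zbtb8a and Zbtb16 were the members with the largest spread between mice. The plot of genotype differences shows these intervals beside that of Zbtb24.

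**Figure D2:**
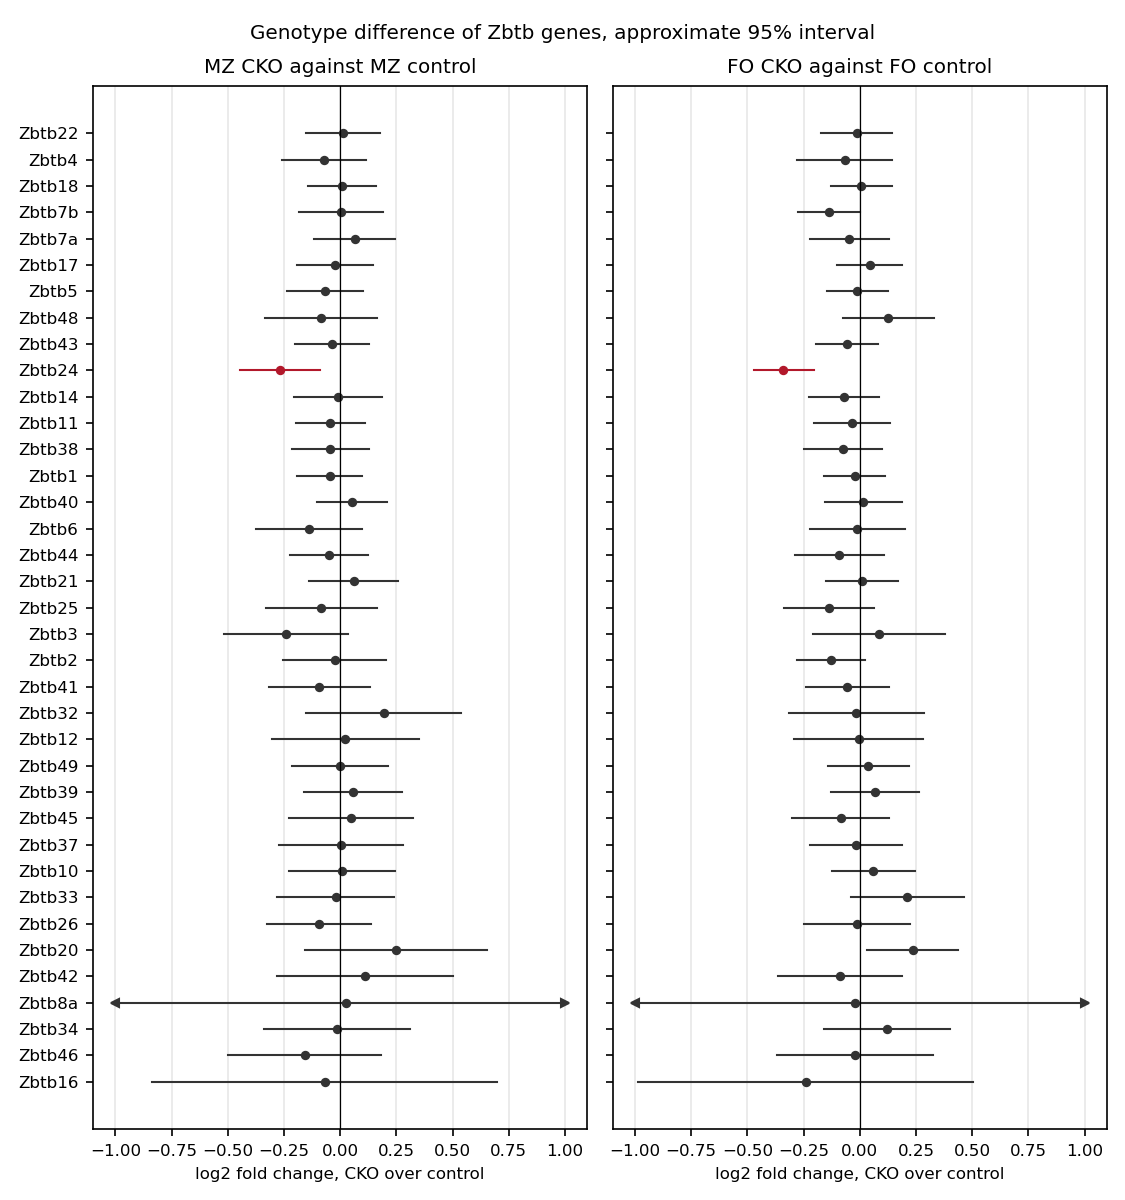
Log2 fold change of CKO over control for the 36 tested members (grey) and Zbtb24 (red) in MZ cells (left) and FO cells (right), with approximate 95% intervals, members ordered by level. Arrows mark intervals of Zbtb8a that run past the axis. The points of the members lie within 0.25 of 0, and the interval of Zbtb24 lies below 0 in both subsets.

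Zbtb20, a repressor known in plasma cells and liver, had the smallest p among members in FO and the second smallest in MZ cells. It was at 75.3, 80.3 and 61.6 CPM in MZ CKO libraries, against 74.4, 60.4 and 48.0 CPM in MZ control libraries. In FO cells it was at 62.1, 54.3 and 48.4 CPM in CKO libraries, against 48.5, 46.3 and 45.4 CPM in control libraries. The CKO mean was the higher one in both subsets, and the groups overlapped in both. The log2 difference was 0.25 (SE 0.17, adjusted p = 1) in MZ and 0.24 (SE 0.09, unadjusted p = 0.0266, adjusted p = 0.9995) in FO cells, and it ranged from 0.14 to 0.33 in FO cells as each library was left out in turn, with adjusted p of 0.591 or more and the lowest value without FO CKO replicate 1. In MZ cells it was 0.11 without MZ control replicate 3 and 0.41 without MZ control replicate 1. The MZ and FO libraries come from the same mice, so the 2 differences are not independent.

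The other members among the 5 with the smallest p in MZ cells were Zbtb3 (log2 -0.24, SE 0.13), which had the smallest, Zbtb6 (-0.14), Zbtb32 (0.19) and Zbtb46 (-0.16). Zbtb3 was at 10.9, 9.98 and 9.47 CPM in MZ CKO libraries, against 11.5, 12.1 and 12.3 CPM in MZ control libraries. These 2 sets did not overlap, which held for 2 members lower in CKO (3.98% of all genes) and 0 higher (3.65%). In FO cells the next were Zbtb7b (log2 -0.14, SE 0.06), Zbtb2 (-0.13), Zbtb33 (0.21, SE 0.11) and Zbtb25 (-0.14). Zbtb7b was at 124, 126 and 134 CPM in FO CKO libraries, against 149, 135 and 139 CPM in FO control libraries, and Zbtb2 at 37.7, 39.5 and 41.4 CPM, against 42.1, 44.0 and 43.9 CPM. Here 4 members did not overlap with a lower CKO level (4.88% of all genes) and 0 with a higher one (4.44%). None of these differences passed, all with adjusted p of 0.9995 or 1. Zbtb7b is known from T cells. By replicate, the T cell markers summed to 337, 343 and 234 CPM in FO CKO and 335, 397 and 386 CPM in FO control libraries. Within neither group did they follow the order of Zbtb7b, and their part in its level was not tested.

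The difference between the 2 genotype effects, MZ minus FO, was tested in 1 fit of all 12 libraries. Again 0 of 36 members passed (0.0% of all genes; 0 members and 0.0216% of all genes with the mouse as a block), and 0 had an unadjusted p under 0.05 (1.28% of all genes); DESeq2 and limma-voom also called 0 (0.0% of all genes by either). The smallest p were those of Zbtb3 (log2 -0.32, SE 0.17), Zbtb33 (-0.23), Zbtb7b (0.14), Zbtb48 (-0.21) and Zbtb42 (0.20), all with adjusted p = 1.

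By role, none of the 3 methyl-CpG binding members (Zbtb4, Zbtb33 or KAISO, and Zbtb38) passed in either subset, and their log2 differences had a median of -0.04 in MZ and -0.07 in FO cells. Of the 10 members known from lymphoid and myeloid fates (Zbtb1, Zbtb7a, Zbtb7b, Zbtb16, Zbtb17, Zbtb18, Zbtb20, Zbtb25, Zbtb32 and Zbtb46), 0 passed, with medians of -0.01 and -0.02. Of the 5 tested members tied to growth, p53 and metabolism (Zbtb2, Zbtb5, Zbtb49, Zbtb11 and Zbtb21), 0 passed, with medians of -0.02 and -0.01. Of the 5 tied to telomeres and genome structure (Zbtb10, Zbtb48, Zbtb40, Zbtb43 and Zbtb14), 0 passed, with medians of -0.01 and 0.01. The count was also 0 in both subsets among 8 BTB zinc finger genes that carry other names, Bcl6 among them, and among 12 genes for corepressors and CUL3. Over all genes, 0.0793% passed in MZ and 0.09% in FO cells.

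Reported targets of ZBTB24 did pass in the same fits. Of 7, 3 fell in MZ CKO cells (Taf6, Ostc and Cdc40) and 5 in FO CKO cells (these 3, Axin2 and Rnf187). Camkmt went the other way in both subsets, with a higher CKO mean (log2 0.242 in MZ and 0.44 in FO cells), and did not pass. Taf6, a subunit of the transcription factor TFIID, was at 21.3, 19.9 and 20.6 CPM in MZ CKO libraries, against 35.2, 37.1 and 34.0 CPM in MZ control libraries (log2 -0.78, SE 0.09, adjusted p = 0.00572 by edgeR). In FO cells Taf6 was at 17.8, 16.7 and 17.4 CPM in CKO libraries, against 37.7, 38.4 and 34.1 CPM in control libraries (log2 -1.08, SE 0.08, adjusted p = 0.000606). With the replicate number as a block, 5 of the 7 passed in FO cells as well. The list was made with earlier results of these data known.

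The promoters of the family were compared with those of the targets for the letters CAGGACCT, reported for ZBTB24 binding. The windows below, from RefSeq on GRCm38.p6 and written 5′ to 3′ along the gene, are shown because they hold these letters in 3 targets and the closest run found in a member; capitals mark the match. Cdca7 (chr2:72476114-72476153, plus strand) and Rnf187 (chr11:58938943-58938982, minus strand) carry the letters as written. The Taf6 window shown (chr5:138187383-138187422, minus strand) carries their reverse complement. Taf6 also holds the letters as written nearer its start site, in a window not shown (chr5:138187217-138187256). Zbtb5 (chr4:45012517-45012555, minus strand) carries the reverse complement of the first 7 letters, CAGGACC.
Cdca7: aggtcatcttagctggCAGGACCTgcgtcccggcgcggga
Rnf187: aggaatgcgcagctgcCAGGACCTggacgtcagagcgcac
Taf6: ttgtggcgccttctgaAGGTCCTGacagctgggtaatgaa
Zbtb5: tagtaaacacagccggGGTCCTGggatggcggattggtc

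Promoters here are 250 bases before to 50 after a start site, searched on both strands. The 8 letters were found in 0 of 47 promoters of the 34 members that had an entry, beside 653 of 32851 promoters of all genes (1.99%), and in 5 of the 6 targets with an entry (Cdca7, Taf6, Cdc40, Rnf187 and Camkmt, not Axin2). No entry was held for Zbtb10, Zbtb16, Zbtb40, Zbtb48, Zbtb7c and the target Ostc. The 7 letters CAGGACC, which every run of the 8 letters also holds, were found in 1 member promoter (2.13%), that of Zbtb5, beside 6.81% of all promoters. Member promoters were rich in CpG, with a median of 25 per promoter and 65.3% GC, beside 7 and 52.7% over all promoters. Zbtb5, which represses the cell cycle inhibitor p21, was at 65.0, 67.8 and 70.8 CPM in MZ CKO libraries, against 73.2, 66.0 and 74.0 CPM in MZ control libraries, and at 50.3, 51.9 and 49.6 CPM in FO CKO libraries, against 52.2, 50.3 and 51.0 CPM in FO control libraries. The groups overlapped in both subsets. A match in these letters is a description of the sequence, and no match says only that they are not in this window.

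Between the subsets, several members passed the test. In CKO mice 9 of 36 members (25%) passed in MZ against FO cells, 2 higher and 7 lower, where 18.3% of all genes passed (10.5% higher and 7.78% lower). In control mice 11 of 36 (30.6%) passed, 3 higher and 8 lower, where 27.9% of all genes passed (14.9% higher and 13.0% lower). By direction, 5.56% of members were higher and 19.4% lower in CKO mice, and 8.33% were higher and 22.2% lower in control mice. The share of members lower in MZ cells was thus above that of all genes and the share higher below it, a comparison that was not tested. With the mouse as a block, which compares the 2 subsets within each animal, 14 members passed in CKO mice (4 higher and 10 lower; 35.8% of all genes, 19.2% higher and 16.6% lower) and 22 in control mice (6 higher and 16 lower; 43.8% of all genes, 22.4% higher and 21.3% lower). Without FO CKO replicate 1, FO CKO replicate 3 or MZ CKO replicate 1, 4 members in place of 7 were lower in CKO mice. Among members that passed without the block, the largest difference was 1.74-fold in CKO and 1.69-fold in control mice. Their median size was 0.43 in CKO and 0.47 in control mice on the log2 scale, beside 0.66 and 0.59 for all genes that passed. Over all 36 tested members the median log2 difference was -0.11 in CKO and -0.12 in control mice, beside -0.01 and 0.01 over all genes.

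Zbtb10 (chr3:9250602-9285333), whose human protein binds variant telomere repeats, had the largest difference among members that passed without the block. Zbtb16, described below, had a larger one in control mice (log2 -0.79) but did not pass without the block. Zbtb10 was at 16.2, 15.2 and 16.7 CPM in MZ CKO libraries, against 28.6, 26.6 and 28.9 CPM in FO CKO libraries (log2 difference -0.80, SE 0.09, adjusted p = 0.000312). In control mice it was at 16.5, 16.2 and 15.1 CPM in MZ libraries, against 25.8, 25.7 and 29.4 CPM in FO libraries (log2 -0.76, SE 0.09, adjusted p = 8.4e-05). Zbtb10 was lower in MZ cells of all 6 mice, and its adjusted p stayed at 0.00846 or less in CKO mice under every one of the 16 settings tried.

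Zbtb22 (chr17:33915904-33919325) had the highest mean RPKM over all 12 libraries, but in MZ cells of both genotypes Zbtb4 and Zbtb18 lay above it. It fell in MZ cells to 55.6, 54.1 and 52.4 CPM in CKO libraries, against 78.4, 73.4 and 80.4 CPM in FO CKO libraries (log2 difference -0.51, SE 0.07, adjusted p = 0.000882). In control mice it was at 50.9, 53.4 and 56.4 CPM in MZ libraries, against 84.5, 77.6 and 72.9 CPM in FO libraries (log2 -0.55, SE 0.07, adjusted p = 0.000211). The subsets did not overlap in either genotype. The gene shares 5.57% of its exon bases with its neighbour Tapbp on the same strand.

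Zbtb7b (chr3:89377644-89394776) was lower in MZ cells as well. It was at 99.7, 114 and 92.9 CPM in MZ CKO libraries, against 124, 126 and 134 CPM in FO CKO libraries (log2 difference -0.32, SE 0.08, adjusted p = 0.0271), and at 98.3, 102 and 105 CPM in MZ control libraries, against 149, 135 and 139 CPM in FO control libraries (log2 difference -0.47, SE 0.07, adjusted p = 0.000302). The 8 T cell markers, among them Cd4, summed to 163 to 258 CPM in MZ CKO, against 234 to 343 CPM in FO CKO libraries, and to 195 to 296 CPM in MZ control, against 335 to 397 CPM in FO control libraries. The markers and Zbtb7b were both lower in MZ cells. By replicate, the marker sums were 231, 258 and 163 CPM in MZ CKO and 204, 296 and 195 CPM in MZ control libraries. They were 337, 343 and 234 CPM in FO CKO and 335, 397 and 386 CPM in FO control libraries. Their order matched that of Zbtb7b among MZ CKO libraries and in no other group. The part of T cells in the level of Zbtb7b was not tested. In CKO mice the call was lost without any 1 of FO CKO replicates 1, 2 and 3 and MZ CKO replicates 1 and 3 (adjusted p up to 0.0933), while the log2 difference stayed between -0.25 and -0.40 over the 6 libraries left out in turn.

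Zbtb2 (chr10:4367075-4388108), which represses p53 pathway genes, was at 31.0, 30.9 and 29.8 CPM in MZ CKO libraries, against 37.7, 39.5 and 41.4 CPM in FO CKO libraries (log2 difference -0.36, SE 0.08, adjusted p = 0.00986). In control mice it was at 26.6, 34.7 and 31.9 CPM in MZ libraries, against 42.1, 44.0 and 43.9 CPM in FO libraries (log2 -0.48, SE 0.09, adjusted p = 0.00278). Zbtb39 (chr10:127739538-127747349), on the same chromosome as Zbtb24, had a mean of 18.5 ± 0.765 CPM in MZ CKO and 24.5 ± 2.14 CPM in FO CKO libraries, and of 17.7 ± 0.694 CPM in MZ control and 23.4 ± 1.19 CPM in FO control libraries (SD, n = 3 each; log2 -0.40 in each genotype; adjusted p = 0.0196 and 0.00475). Both genes were lower in MZ cells of all 6 mice. Without FO CKO replicate 1, FO CKO replicate 3 or MZ CKO replicate 1 the call of Zbtb39 in CKO mice was lost (adjusted p up to 0.0858).

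Zbtb42 (chr12:112678828-112682747), which encodes a repressor known from muscle, was at 4.59, 5.35 and 4.56 CPM in MZ CKO libraries, against 6.70, 6.93 and 6.92 CPM in FO CKO libraries (log2 difference -0.50, SE 0.15, adjusted p = 0.0469). In control mice it was at 3.99, 4.65 and 4.79 CPM in MZ libraries, against 7.44, 6.98 and 7.46 CPM in FO libraries (log2 -0.70, SE 0.14, adjusted p = 0.00322). The subsets did not overlap. In CKO mice the call was lost when any 1 of the 6 libraries was left out (adjusted p up to 0.131), at log2 differences of -0.46 to -0.58.

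The methyl-CpG binding members went different ways. Zbtb33 (KAISO; chrX:38189793-38197046) was at 11.8, 11.3 and 11.8 CPM in MZ CKO libraries, against 15.8, 17.2 and 18.9 CPM in FO CKO libraries (log2 difference -0.57, SE 0.11, adjusted p = 0.0078). In control mice it was at 12.3, 11.6 and 11.5 CPM in MZ libraries, against 13.5, 15.0 and 16.3 CPM in FO libraries (log2 -0.34, SE 0.11, adjusted p = 0.0339). The control call was lost without any 1 of FO control replicates 2 and 3 and MZ control replicates 1, 2 and 3 (adjusted p up to 0.123). The gene shares 9.25% of its exon bases with Tmem255a on the opposite strand.

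Zbtb38 (chr9:96682770-96752831) rose in MZ cells. It was at 104, 90.0 and 98.9 CPM in MZ CKO libraries, against 74.1, 76.2 and 69.1 CPM in FO CKO libraries (log2 difference 0.43, SE 0.08, adjusted p = 0.00487), and at 105, 96.9 and 100 CPM in MZ control libraries, against 79.6, 69.7 and 82.6 CPM in FO control libraries (log2 difference 0.38, SE 0.08, adjusted p = 0.00294). Zbtb4, the third of this group, averaged 204 ± 18.8 CPM in MZ CKO and 180 ± 26.3 CPM in FO CKO libraries, and 215 ± 8.63 CPM in MZ control and 188 ± 8.02 CPM in FO control libraries (SD, n = 3 each). It was higher in MZ cells of all 6 mice and did not pass without the block (adjusted p = 0.278 and 0.0515), and it passed with it (log2 0.20, adjusted p = 0.0214 in CKO; log2 0.19, adjusted p = 0.00873 in control mice).

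Zbtb5 (chr4:44991242-45012412), whose library values are given above, was the member that rose most in MZ cells, with a log2 difference of 0.43 (SE 0.07, adjusted p = 0.00215) in CKO and 0.47 (SE 0.07, adjusted p = 0.000321) in control mice. No MZ library overlapped an FO library. An antisense transcript shares 13% of the exon bases of Zbtb5, and without a stated strand setting their reads cannot be told apart. Zbtb3 (chr19:8802555-8804846) rose in MZ cells of control mice, with 11.5, 12.1 and 12.3 CPM, against 8.61, 8.99 and 9.22 CPM in FO control libraries (log2 difference 0.42, SE 0.11, adjusted p = 0.0129; 0.0577 without MZ control replicate 3). In CKO mice it was at 10.9, 9.98 and 9.47 CPM in MZ libraries, against 10.5, 8.11 and 9.86 CPM in FO libraries, which overlap (log2 0.11, SE 0.14, adjusted p = 0.68). The difference between the genotypes in this subset effect did not pass (log2 -0.32, SE 0.17, unadjusted p = 0.0701, adjusted p = 1), so it is not shown to differ between CKO and control mice.

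Zbtb37 (chr1:161002922-161034849) passed in control mice alone and at the edge of the threshold. It was at 59.3, 47.0 and 46.3 CPM in MZ control libraries, against 67.1, 57.6 and 64.1 CPM in FO control libraries (log2 difference -0.31, SE 0.10, adjusted p = 0.0456). The subsets overlapped, yet within each mouse the MZ library was the lower one. The call was lost without FO control replicates 1 or 3 or MZ control replicates 2 or 3 (adjusted p up to 0.157). It was also lost with limma-voom (0.0573), without robust estimation (0.0591), with a filter of 1 CPM in 3 libraries (0.0519) and in the fit of all 12 libraries (0.0815). In CKO mice the log2 difference was -0.28 (SE 0.12, adjusted p = 0.139; 0.00684 with the mouse as a block). Of its exon bases, 15.6% are shared with Serpinc1 on the opposite strand.

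**Figure D3:**
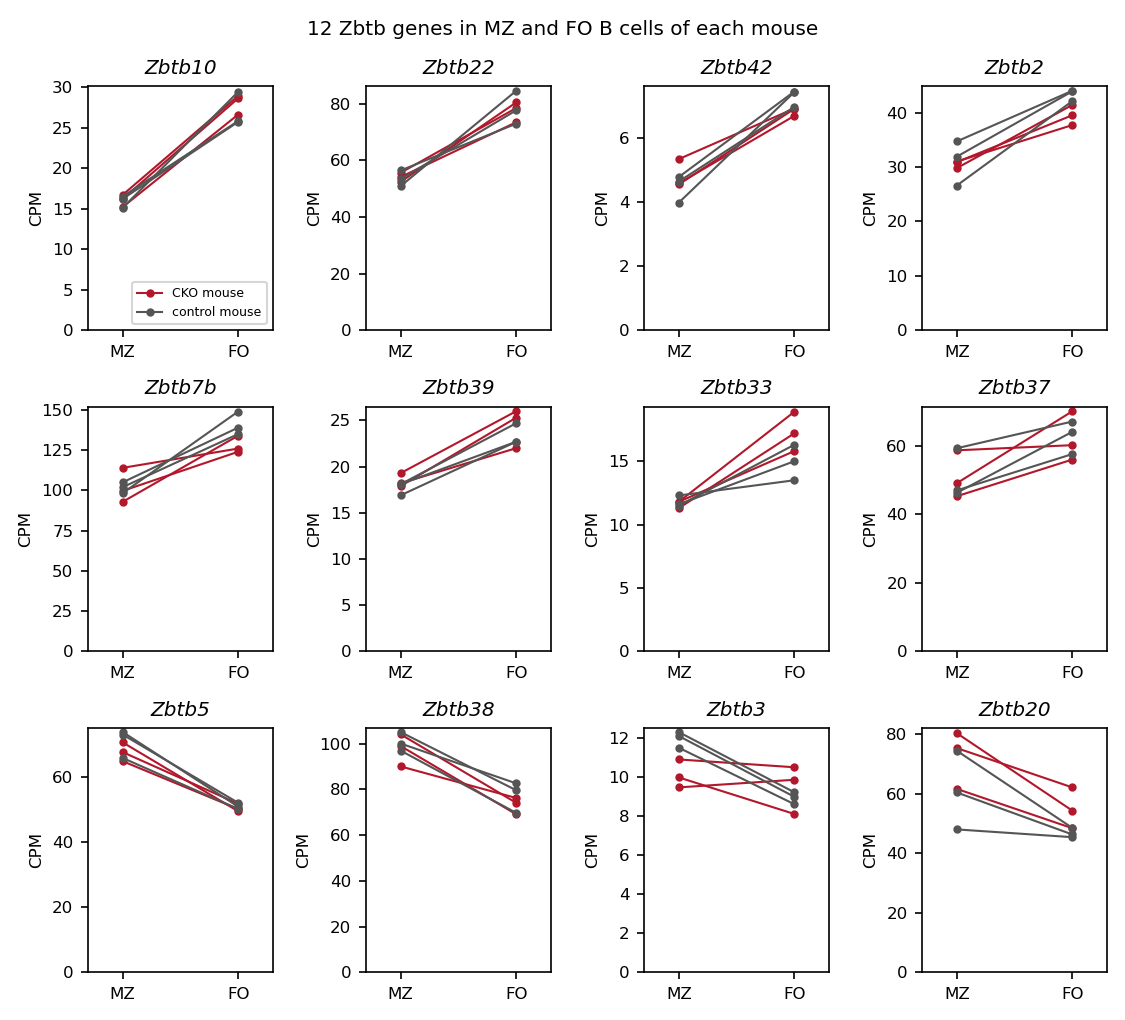
CPM of 12 members in MZ cells (left of each panel) and FO cells (right), with a line for each mouse, red for CKO and grey for control. In the 8 panels of Zbtb10 to Zbtb37 all 6 lines climb from MZ to FO, in those of Zbtb5, Zbtb38 and Zbtb20 all 6 descend, and Zbtb3 is mixed.

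Seen mouse by mouse, 16 of the 36 members were lower in MZ cells of all 6 mice (21.7% of all genes) and 5 were higher in all 6 (Zbtb1, Zbtb4, Zbtb5, Zbtb20 and Zbtb38; 22.3% of all genes). Zbtb20 stood at 72.4 ± 9.67 CPM in MZ CKO, against 54.9 ± 6.85 CPM in FO CKO libraries, and at 60.9 ± 13.2 CPM in MZ control, against 46.8 ± 1.59 CPM in FO control libraries (SD, n = 3 each). It missed the threshold without the block (adjusted p = 0.0516 in CKO and 0.101 in control mice) and rose in MZ cells with it (log2 0.40, adjusted p = 4.14e-05 in CKO; log2 0.36, adjusted p = 0.000185 in control mice). The size of the shift of Zbtb20 differed between mice, from 0.08 to 0.61 on the log2 scale of CPM plus 0.5. Zbtb1 was higher in MZ cells of every mouse by only 0.08 to 0.14 on that scale.

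Members that did not pass in either genotype without the block included several lymphoid factors. Zbtb7a, which with the block passed in control mice as slightly lower in MZ cells (log2 -0.16, adjusted p = 0.0268), was at 138 ± 11.7 CPM in MZ CKO and 142 ± 11.9 CPM in FO CKO libraries, Zbtb17 at 64.3 ± 2.36 and 67.3 ± 2.46 CPM, and Zbtb18 at 143 ± 4.27 and 153 ± 4.86 CPM, in the same order of groups. Zbtb32 (ROG), which restrains the recall response of memory B cells, was at 9.92 ± 1.33 CPM in MZ CKO and 9.0 ± 0.465 CPM in FO CKO libraries, and Zbtb25 at 15.3 ± 0.322 and 16.1 ± 0.505 CPM (SD, n = 3 each). Zbtb11 (log2 0.00 in both genotypes) and Zbtb17 (log2 -0.06 in CKO and 0.00 in control mice) were among the members closest to no difference. In control mice the approximate 95% interval of the fold (MZ over FO) ran from 0.898 to 1.11 for Zbtb11.

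Zbtb16 and Zbtb46 are known from cells other than B cells, natural killer T and innate lymphoid cells for the one and classical dendritic cells for the other. Zbtb16 was at 1.19, 1.65 and 1.24 CPM in MZ CKO libraries, against 2.17, 2.90 and 1.21 CPM in FO CKO libraries, and at 1.1, 2.28 and 0.931 CPM in MZ control libraries, against 1.82, 3.09 and 2.54 CPM in FO control libraries. In each of the 4 groups the second replicate was the highest. The 5 NK and innate lymphoid markers summed to 41.4, 54.5 and 38.0 CPM in the same MZ CKO libraries, against 71.6, 90.0 and 67.2 CPM in FO CKO, and to 32.8, 56.4 and 35.4 CPM in MZ control, against 53.4, 81.0 and 69.8 CPM in FO control libraries, and the second replicate was the highest there too. This was not particular to that list, since the second replicate was also the highest in all 4 groups for the T cell and the neutrophil marker sums. The part of any of these cells in the level of Zbtb16 was not tested. The subset difference of Zbtb16 did not pass without the block (log2 -0.61, adjusted p = 0.238 in CKO; log2 -0.79, adjusted p = 0.133 in control mice). With the block it passed (adjusted p = 0.0451 and 0.000275).

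Zbtb46 was at 7.2, 9.09 and 7.15 CPM in MZ CKO libraries, against 8.62, 10.3 and 7.26 CPM in FO CKO libraries, and at 9.40, 8.66 and 8.09 CPM in MZ control libraries, against 9.23, 9.42 and 7.98 CPM in FO control libraries. The groups overlapped and 0 comparisons passed. The 8 dendritic cell markers summed to 55.6 to 83.5 CPM in MZ CKO, against 77.8 to 113 CPM in FO CKO libraries, and to 68.5 to 84.2 CPM in MZ control, against 78.6 to 103 CPM in FO control libraries; their part in the level of Zbtb46 was not tested.

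All 9 members called in CKO mice were among the 11 called in control mice with the same sign, which is 100% of the CKO calls and 81.8% of the control calls. Zbtb3 and Zbtb37 passed in control mice and not in CKO mice. Over all genes the 2803 shared calls made up 87.0% of the CKO and 56.9% of the control calls. The CKO and control comparisons share no library. Across the 36 members the 2 sets of log2 differences had a Pearson r of 0.931, given as a description, since the genes of a library share its depth and purity and are not independent replicates; over all genes tested in both it was 0.894.

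**Figure D4:**
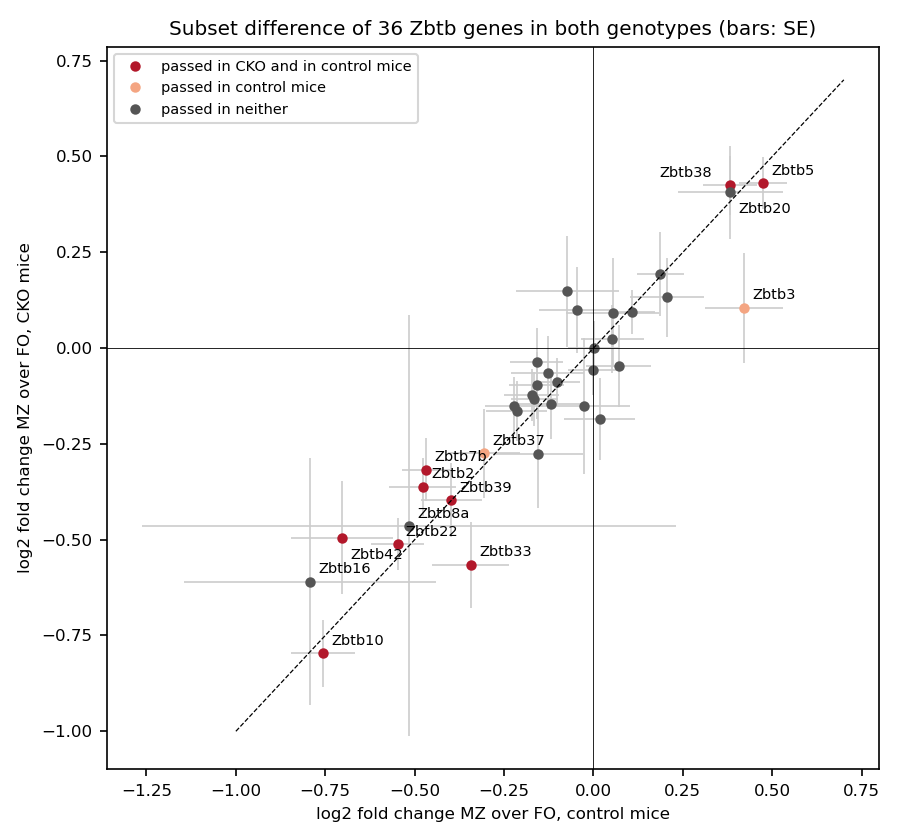
Log2 fold change of MZ over FO cells in CKO mice (vertical) against that in control mice (horizontal) for the 36 tested members, with bars of 1 SE and a dashed line of equality. The 9 members past the test in both genotypes (red) have the same sign on both axes, with Zbtb10 lowest and Zbtb5 and Zbtb38 highest, and Zbtb3 lies below the line.

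By role, the methyl-CpG group gave 1 member higher and 1 lower in MZ cells of either genotype, out of 3. Over all genes, 10.5% were higher and 7.78% lower in CKO mice, and 14.9% higher and 13.0% lower in control mice. The lymphoid and myeloid group gave 1 lower (Zbtb7b) out of 10 in each genotype, and the telomere and genome structure group 1 lower (Zbtb10) out of 5. Of the 5 tested members tied to growth, p53 and metabolism, 1 was higher (Zbtb5) and 1 lower (Zbtb2) in each genotype. With the mouse as a block, 19.2% of all genes were higher and 16.6% lower in CKO mice, and 22.4% higher and 21.3% lower in control mice. The telomere group had 1 of 5 lower in CKO and 4 in control mice with this block (Zbtb14, Zbtb40 and Zbtb43 added). The lymphoid group then had 1 higher and 2 lower in CKO mice, and 1 higher and 3 lower in control mice, out of 10. The methyl-CpG group had 2 higher and 1 lower in each, and the growth group 1 higher and 1 lower in CKO mice and 1 higher and 2 lower in control mice (Zbtb21 added). The counts by role were not tested against these shares of all genes. The others that passed without the block, Zbtb22, Zbtb39 and Zbtb42 in both genotypes and Zbtb3 and Zbtb37 in control mice, stood in none of these lists. Among 8 BTB zinc finger genes under other names, Bcl6, the repressor that drives germinal centre B cells, was by far the most shifted: it was at 34.5, 34.0 and 32.9 CPM in MZ CKO libraries, against 96.5, 89.1 and 98.0 CPM in FO CKO libraries (log2 difference -1.47, SE 0.07, adjusted p = 7.62e-06), and at 32.8, 40.5 and 31.8 CPM in MZ control libraries, against 104, 111 and 87.2 CPM in FO control libraries (log2 difference -1.53, SE 0.12, adjusted p = 1.76e-05). Gzf1 rose in MZ cells of both genotypes (log2 0.33 in CKO and 0.30 in control mice), and the other 6 did not pass without the block. With it, Bcl6b, Mynn and Hic2 also fell in control mice (adjusted p = 0.0146, 0.0219 and 0.0286), and the counts in CKO mice were as before, 1 higher and 1 lower of 8.

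Among the 12 genes for corepressors and CUL3, 1 rose and 2 fell in MZ cells of CKO mice, where 10.5% of all genes rose and 7.78% fell. In control mice 2 rose and 4 fell, where 14.9% of all genes rose and 13.0% fell. With the block 3 fell in CKO and 5 in control mice, where 16.6% and 21.3% of all genes fell. Tbl1xr1, a subunit of the NCOR and SMRT corepressor complexes, rose most. It was at 317, 272 and 295 CPM in MZ CKO libraries, against 184, 175 and 178 CPM in FO CKO libraries (log2 difference 0.73, SE 0.08, adjusted p = 0.000236), and at 278, 299 and 307 CPM in MZ control libraries, against 179, 191 and 222 CPM in FO control libraries (log2 difference 0.58, SE 0.08, adjusted p = 0.000335). Its relative Tbl1x and the subunit gene Gps2 fell in both genotypes (log2 -0.26 and -0.25 in CKO, -0.43 and -0.32 in control mice).

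Zbtb8a (chr4:129353628-129378116) varied by mouse more than by subset or genotype. Its counts were 111, 43 and 127 in MZ CKO, 118, 147 and 28 in MZ control, 193, 62 and 165 in FO CKO, and 194, 178 and 52 in FO control libraries. The lowest library of each group came from the same animal in both subsets, CKO mouse 1514 and control mouse 2003. Scaled for depth, mouse 1514 had 1.09 CPM in MZ and 1.56 CPM in FO cells, and mouse 2003 had 0.79 CPM in MZ and 1.27 CPM in FO cells. The other 8 libraries lay between 2.76 and 4.83 CPM. As 1 such mouse stood in each genotype, the genotype difference was near 0 with a wide interval (log2 0.03, SE 0.67 in MZ cells). Within each of the 6 mice Zbtb8a was lower in MZ than in FO cells, by 0.27 to 0.57 on the log2 scale of CPM plus 0.5, and with the mouse as a block it fell in MZ cells (log2 -0.47, adjusted p = 0.0372 in CKO; log2 -0.53, adjusted p = 0.00709 in control mice). Zbtb8os, a tRNA ligase archease gene that overlaps 11.4% of the exon bases of Zbtb8a on the opposite strand, did not vary in this way, with 875 to 1196 counts per library. This check by mouse was added after the values of Zbtb8a were seen.

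**Figure D5:**
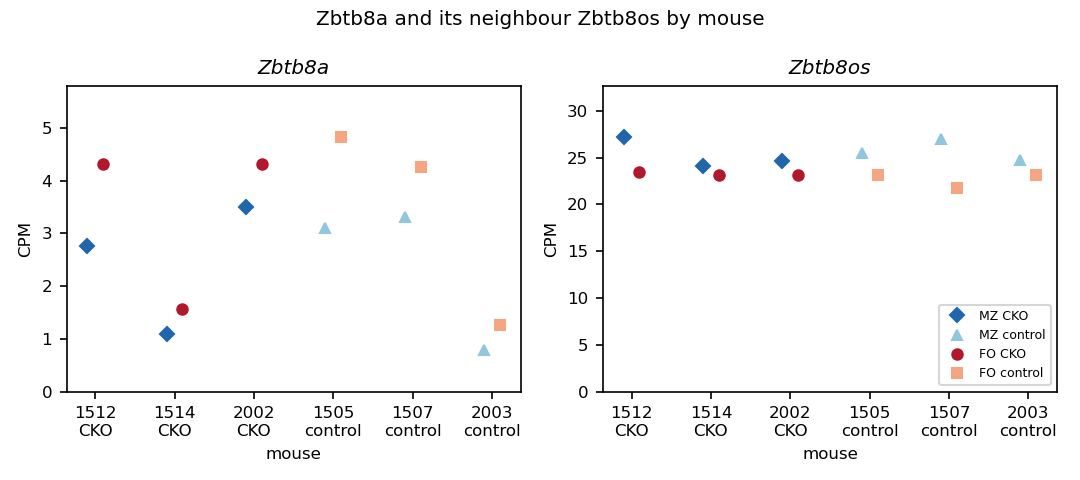
CPM of Zbtb8a (left) and its neighbour Zbtb8os (right) by mouse, with 1 symbol for the MZ and 1 for the FO library of each animal and the CKO mice at the left of each panel. Mice 1514 and 2003 lie low for Zbtb8a in both subsets and not for Zbtb8os.

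Some members are neighbours in the genome. Zbtb1 and Zbtb25 on chromosome 12 start 663 bases apart and are read in opposite directions, and neither passed in any of the 5 comparisons. Zbtb6 and Zbtb26 on chromosome 2 overlap on the same strand and share 449 exon bases, which reads from either gene could reach, so their separate values are uncertain there. Zbtb2, Zbtb7a and Zbtb39 lie on chromosome 10 at 37.1, 39.7 and 86.3 Mb from the targeted Zbtb24. In MZ cells their genotype differences were -0.02, 0.07 and 0.06 on the log2 scale, and in FO cells -0.13, -0.05 and 0.07, with none of them past the test.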

How the data were processed

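Raw read counts per Ensembl gene were deposited for 12 libraries. The authors aligned with TopHat and counted with HTSeq on GRCm38 (mm10), and named DESeq2, per the submitters' processing notes, without versions; the annotation release and strand setting are not given in the sources used here. Rows that name no gene held 43.2 to 50.4% of all reads and were left out of library sizes and tests. Symbols, coordinates and exon lengths came from Gencode M21 on the same build, and promoters from RefSeq (GRCm38.p6).

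The test was edgeR 4.0.16 in R 4.3.3 (filterByExpr, TMM, robust quasi-likelihood F test, two-sided), run on the counts and fitted over all genes of the libraries compared, with Benjamini-Hochberg adjustment over all of them and a threshold of 0.05. The standard error is the log2 fold change over the root of F, and intervals rest on it. CPM and RPKM were computed from the deposited counts with these scaling factors. Alternatives used DESeq2 1.42.0 and limma 3.58.1 (voom), other filters and scaling, the replicate number as a block, and each library left out. The procedure was tested on simulated data. Depth was 36340116 to 44629250 counts per library.

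The pairing of MZ and FO libraries by mouse is an inference from the animal numbers. Libraries of 1 mouse deviated together from their group means (correlations 0.464, 0.651 and 0.604 in CKO and 0.426, 0.612 and 0.516 in control mice), so the block is given beside subset results. Between genotypes, libraries with the same replicate number, taken from the titles, deviated together in FO cells (0.104, 0.323 and 0.361) and not throughout in MZ cells (-0.0654, 0.362 and 0.365).

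Named were all members that passed in any comparison, the 5 with the smallest p in each genotype comparison and in the difference, the 8 with the highest RPKM, those under 1 CPM in every group, all members of 4 role lists, and, of other genes, Zbtb24, Cdca7 and up to 4 per list that passed. The members and lists were chosen with earlier results of these data known.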

Additional observations from a re-analysis of the deposited data

How the results depend on the processing

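No relative passed in either genotype comparison or in their difference under any of 16, 16 and 21 settings (smallest adjusted p 0.583 in MZ, 0.367 in FO and 0.896 for the difference), and leaving out 1 library at a time gave 0 to 0 members higher and 0 to 0 lower. In the subset comparisons, the replicate block gave 4 higher in CKO mice, and 6 higher and 16 lower in control mice. Leaving out 1 library gave 2 to 3 higher and 4 to 6 lower in CKO mice, and 3 to 4 higher and 6 to 7 lower in control mice. With the animals of replicates 1 and 2 alone, 2 members were lower in CKO mice, and the calls lost were Zbtb2, Zbtb33 and Zbtb38 (adjusted p 0.101, 0.0847 and 0.0611), with Zbtb39 (0.118), Zbtb42 (0.223) and Zbtb7b (0.180). In control mice Zbtb3 (0.0948), Zbtb33 (0.264) and Zbtb37 (0.296) were lost there; fewer animals were tested. Zbtb42 in CKO mice was also lost with no filter on low counts (0.0945). Of the alternatives for the members that passed without the block, or were among the smallest p between genotypes, 949 stayed on their side of the threshold, 38 no longer passed, 3 newly passed (Zbtb37 in CKO mice) and 0 changed direction. Many of the 949 were genotype tests that had not passed at the outset, and all of those stayed. The 38 losses were all in the subset comparisons, so 949 does not measure how stable the subset calls were. Other members that passed only with the block, such as Zbtb4, were outside this count.

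Between genotypes in MZ cells, libraries were matched by replicate number alone. Those of equal number deviated together for replicates 2 and 3 (correlations 0.362 and 0.365) and not for replicate 1 (-0.0654). The replicate block there took the targets that fell to 6 of 7, with Cdca7 among them (edgeR adjusted p = 0.000799). It took all genes that passed to 57, beside 14 without it. The shorter cores CAGGAC and AGGACC were found in 4.26% and 12.8% of member promoters, where 20.5% and 17.5% of all promoters hold them. By the longest transcript, 7 of the 8 members highest per length were the same. Zbtb7c and Zbtb8b had too few counts to be tested, and Zbtb9 was listed at 0.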
